A study of Mus musculus with 28 samples.

Results

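The comparison set wild-type bladder against wild-type proximal stomach, both taken from Balb/c mouse fetuses at embryonic day 18 (E18). The members were chosen by their titles alone: 2 arrays of wild-type bladder and 2 of wild-type proximal stomach, 4 of the 28 arrays of the series, with all probe sets. The series compared p63 knockout with wild-type mice in the bladder, both regions of the stomach and both small and large intestine, with 2 arrays per group, and it holds wild-type and knockout bladder also at E15 and E19. The knockout bladder and knockout proximal stomach at E18 served to ask whether the difference between the organs depended on p63 (Trp63 in mouse). How the tissue was dissected, which p63 allele was used and how many animals made a sample were not stated in the material used. Nor is it stated that replicates are separate animals. In both wild-type organs at E18 replicate 1 was high in the Y-linked gene Eif2s3y and replicate 2 in Xist. These replicates were therefore not repeats of 1 sample. The p-values measure the spread between arrays over all groups, and in groups without such a difference that spread may be technical.

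Bladder and proximal stomach are the organs of this series whose wild-type epithelium is stratified. The bladder carries urothelium, a transitional epithelium whose superficial umbrella cells cover themselves with plaques of uroplakins. The proximal stomach of the mouse, the forestomach, carries a squamous epithelium that keratinizes: its basal cells are replaced upward by suprabasal cells with other keratins and then by dead cells sealed by a cornified envelope. p63 is a transcription factor of the p53 family found in the basal cells of both. Around each epithelium lie smooth muscle, connective tissue, vessels and nerves, and the RNA came from all of these together. In such bulk RNA, fewer cells of a type and less RNA per cell cannot be told apart.

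Values are log2 levels of Affymetrix probe sets, between about 3 and 15, so a difference of 1 is a 2-fold difference. The 2 bladder arrays correlated at r = 0.991 across genes and the 2 proximal stomach arrays at r = 0.982, with a standard deviation of the difference between replicates of 0.28 and 0.40. The labelled organs matched most of their markers. The urothelial markers Upk1a, Upk2, Upk3a, Snx31 and Krt20 were higher in bladder, and the squamous markers Krt13, Krt4, Krt1, Krt10, Lor and Sprr3 were higher in proximal stomach. Among the other squamous markers, Ivl went the other way, higher in bladder, and Sprr1a was not called. The glandular stomach markers Gkn1, Gkn2 and Pgc lay between 4.35 and 5.40 on all 4 arrays, against means of 14.41, 13.81 and 13.03 in wild-type distal stomach. Tff1, another such marker, read above that range on both proximal stomach arrays, more so in replicate 2. The median of 19 gastric gland genes was 6.32 and 6.25 in bladder and 6.06 and 6.52 in proximal stomach. In wild-type distal stomach that median was 12.79 and 12.35. The actin control probe sets, which measure how far RNA is degraded or labelling is shortened toward the 3' end, read 0.57 and 0.56 (3' minus 5', log2) in bladder and 0.97 and 0.88 in proximal stomach, so this measure moved with organ. Replicate 1 of both organs was high in Eif2s3y, a Y-linked gene (11.80 and 12.03), and replicate 2 of both was high in Xist (12.99 and 13.47), so that sex was balanced between the organs. Both knockout bladder arrays were high in Xist (12.74 and 12.87), and knockout stomach replicate 1 was high in Eif2s3y (11.97). Knockout stomach replicate 2 was low in both (4.18 for Eif2s3y and 6.19 for Xist). These readings were thus not balanced between the knockout organs. The knockout organ difference and the difference between genotypes carry this imbalance, which was not adjusted for.

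Of 13613 genes tested, 6348 (46.6%) were called different between the organs at an adjusted p under 0.05 by limma, 3303 (24.3%) higher in bladder and 3045 (22.4%) lower. Differences of at least 2-fold were called for 1110 genes higher in bladder (8.15%) and 1299 lower (9.54%). Beyond 16-fold the sides were unequal, with 61 genes higher in bladder (0.448%) and 194 lower (1.43%). The median difference over all genes was 0.02. A gene was tested where it lay above the median of the array on at least 2 of the 28 arrays, so a gene found in 1 organ alone could enter through that organ, and the list counts below are over members that entered. Each such count stands beside the shares of all genes called, 24.3% higher and 22.4% lower in bladder. With the actin 3' to 5' measure as a covariate, 4005 genes were called, of which 3830 were among the 6348, and 1761 were lower in bladder. Exact permutation of 4 arrays reaches no p under 0.333, so each call depends on the variance that limma shares across genes and the 14 groups.

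The 15 largest differences on each side named the organs. On the bladder side stood 4 genes of position along the body axis (Hoxa10, Hoxd13, Hoxd10, Hoxa11) with the antisense transcript Hoxa11os, the uroplakins Upk1a and Upk3a, the umbrella cell sorting nexin Snx31, and Asz1, Ttr, Fmo5, Clca3a2, Gsdmc2, Mfsd4a and Rhox5. On the stomach side 13 of 15 belonged to the lists of the cornified envelope, epithelial serpins or mucosal defence, from Lce3f (-10.67) to Lce1f (-8.39), with Asprv1, a protease that processes filaggrin, among them. The other two were Teddm3 and Fads2b. Hoxa10 read 11.94 and 11.93 in bladder against 3.73 and 4.58 in stomach (difference 7.78, SE 0.25, adjusted p = 1.17e-15). Lce3f read 4.25 and 4.39 in bladder against 14.93 and 15.05 (difference -10.67, SE 0.57, adjusted p = 3.2e-12). That the arrays of the organs did not overlap was a condition for choosing these 30 genes, and it held for 73.8% of all genes tested.

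**Figure D1:**
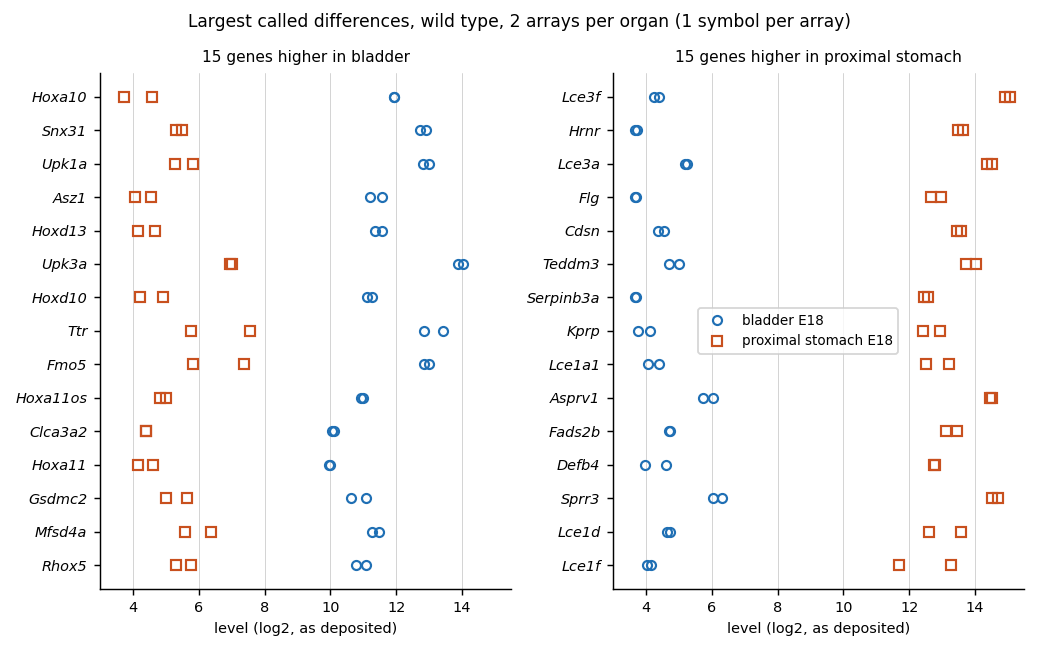
Level of each gene (log2, as deposited) on the 2 wild-type bladder arrays (circles) and the 2 wild-type proximal stomach arrays (squares) at E18, for the 15 largest called differences on each side. The low side of most genes lies between about 4 and 6, near the bottom of the scale; Ttr, Lce1f and Fmo5 are the genes whose stomach arrays lie farthest apart.

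The low readings set a limit on these sizes. The bladder means of Flg, Hrnr and Serpinb3a were at the 1.08, 1.17 and 1.12 percentile of all probe sets of the array, where the deposited values hold no detection call. A difference from such a floor can be larger in the tissue than on the array. Genes of the Lce, Sprr, Serpinb3 and Clca families have close copies, and the values of single members are uncertain to the extent that a probe set reads several.

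Trp63 itself was present in both organs and read lower in bladder. It was tested by probe set, where 42.1% of 28866 were called. The probe set 1418158_at read 12.29 and 12.54 in bladder against 13.16 and 13.31 in proximal stomach, a difference of -0.82 (SE 0.38) that was not called (adjusted p = 0.0877). It was called where only the 4 arrays (adjusted p = 0.00123) or only wild-type arrays (adjusted p = 0.00351) entered the fit, and with the actin covariate the difference was -0.24 (adjusted p = 0.801). The probe set 1452027_a_at read 7.33 and 7.57 against 8.71 and 8.79 (-1.30, SE 0.19, adjusted p = 1.42e-05). The probe set 1459581_at read 7.74 and 8.58 against 9.34 and 9.85 (-1.44, SE 0.31, adjusted p = 0.00081). On all 3 the organs did not overlap, as was true of 73.8% of all genes tested. The probe set 1451876_a_at did not pass the filter on low values and was not tested. It read 5.77 and 5.92 in bladder against 6.43 and 6.44 in proximal stomach. In wild-type distal stomach, small intestine and large intestine 1418158_at had means of 7.12, 5.71 and 6.40, well under both stratified organs.

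The knockout arrays did not read low for Trp63: 1418158_at had means of 11.32 in knockout bladder and 13.72 in knockout proximal stomach. Where the deletion lies against the probes is not known here, so these probe sets check nothing about the labels. Krt5, a basal keratin and p63 target, had means of 7.61 in knockout bladder and 8.25 in knockout stomach beside 12.44 and 14.05 in the wild-type organs; a fit of genotype within an organ was not made.

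Krt5, Krt14 and Krt15, keratins of the basal layer, read high in both organs but not all at the same level. In bladder they were at the 95.1, 79.2 and 99.5 percentile of the array. Krt17 was at the 34.4 percentile there. Its bladder mean of 6.47 lay under those of wild-type distal stomach (7.54), small intestine (7.47) and large intestine (8.83). Of the 4 basal keratins tested, 3 were lower in bladder and none was higher. Krt5 read 12.71 and 12.17 in bladder and 14.10 and 13.99 in stomach (-1.60, SE 0.19, adjusted p = 7.3e-07). Krt14, its partner in the basal filament, read 11.39 and 9.57 against 12.84 and 12.16 (-2.02, SE 0.46, adjusted p = 0.0012). The Krt14 call ended without bladder replicate 2 (-1.11, adjusted p = 0.0661) and with the actin covariate (-1.81, adjusted p = 0.0622). Krt15 read 14.26 and 14.11 against 14.36 and 14.59 (-0.29, SE 0.54, adjusted p = 0.693), near the top of the scale in both organs. Krt17, a keratin of stressed and appendage epithelium, read 6.69 and 6.26 against 10.88 and 9.54 (-3.74, SE 0.34, adjusted p = 1.39e-08). Krt15 was thus the basal keratin not called in the main fit, and Krt17 had the largest difference of the 4. Where only the arrays of the groups compared entered the fit, Krt15 was called lower in bladder (-0.29, adjusted p = 0.0378 by limma).

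Genes listed as regulators and targets around p63 were mostly lower in bladder. Of 29 regulators and effectors tested, 22 were lower and 4 higher, with a median difference of -1.09 against 0.02 over all genes. The largest were Tfap2a (-4.88), Dlx3 (-4.75), Elf5 (-3.43) and Dlx5 (-3.36), transcription factors of surface epithelium. Dlx3 read 8.01 and 7.62 in bladder against 12.62 and 12.51. The 4 higher in bladder were Satb1 (1.76), Gata3 (1.76), Ikzf2 (1.03) and Ets1 (0.98). Gata3, a factor that urothelium is known to carry, read 11.54 and 11.62 against 9.67 and 9.98. The call for Ikzf2 ended with the actin covariate. Trp73, the p63 relative, was lower in bladder (-3.06, SE 0.25, adjusted p = 2.66e-09), as was the p53 target Cdkn1a (-2.13, SE 0.24, adjusted p = 3.9e-07).

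Desmosome genes differed in opposite directions by family member. Of 20 genes of the basal anchorage and desmosome list, 13 were lower in bladder and 4 higher. The cadherins of squamous epithelium Dsg1b (-7.93), Dsc1 (-7.13), Dsg1a (-5.77) and Dsc3 (-5.67) were lower. Dsg1b read 3.94 and 3.82 in bladder against 11.75 and 11.87 in stomach. Pkp2, the plakophilin of simple epithelium and heart, went the other way, with 10.68 and 10.71 against 5.87 and 5.88 (4.82, SE 0.17, adjusted p = 3.38e-15), and Dsg2, the cadherin of simple epithelium, read 11.98 and 12.04 against 10.54 and 10.81 (1.33, SE 0.13, adjusted p = 3.63e-08). Components common to all desmosomes differed less: Dsp, the plaque protein desmoplakin, by -1.17 (SE 0.18) and Jup, plakoglobin, by -1.15 (SE 0.16). The hemidesmosome collagen Col17a1 read 7.14 and 7.42 against 11.32 and 10.93 (-3.85, SE 0.30, adjusted p = 1.32e-09). The other 2 called higher were Plec (0.29) and Dst (0.38), and both calls ended without bladder replicate 1 (2 higher) and without stomach replicate 2 (2 higher); Dst turned to -0.56 with the mean of its probe sets.

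Suprabasal keratins were higher in stomach. Of 9 tested (12 on the array), 8 were lower in bladder, with a median difference of -4.57. Krt13, the keratin of lining mucosa, also found in adult urothelium, read 7.04 and 6.92 in fetal bladder against 14.59 and 14.69 (-7.67, SE 0.27, adjusted p = 4.23e-15). Its partner Krt4 was at 11.42 and 10.77 against 14.55 and 14.69 (-3.52, SE 0.54, adjusted p = 1.78e-05), so the pair was not equally low in bladder. Krt1, the epidermal suprabasal keratin, read 6.42 and 6.58 against 13.47 and 12.67 (-6.58, SE 0.26), and its partner Krt10 8.92 and 9.08 against 13.70 and 13.45 (-4.57, SE 0.15). The hyperproliferation keratin Krt6b (-6.20) and Krt80 (-4.93) were also lower.

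The cornified envelope had the largest median difference of the 40 lists. Of 56 genes on the array 53 were tested, and of these 48 were lower in bladder, 1 was higher and 4 were not called, with a median difference of -6.91. The list's median level per array was 5.63 and 5.35 in bladder and 13.20 and 12.56 in stomach. Among the 48 were late envelope proteins of the Lce family, the filament aggregators Flg (-9.14) and Hrnr (-9.88), loricrin (Lor, 7.17 and 7.06 against 15.22 and 14.97), the corneodesmosome protein Cdsn (-9.06) and the cross-linking transglutaminases Tgm1 (-4.06) and Tgm3 (-5.17). The count was 48 without each bladder array, without stomach replicate 1 and with the actin covariate, and 47 without stomach replicate 2.

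The 5 exceptions were Ivl, Sprr1a, Cers3, Tchh and Casp14. Ivl, involucrin, read 12.56 and 11.74 in bladder against 9.84 and 8.68 in stomach and was the list member called higher in bladder (2.89, SE 0.31, adjusted p = 1.52e-07). Sprr1a, a small proline-rich precursor, read 14.52 and 14.42 against 14.48 and 14.64 (-0.09, SE 0.21, adjusted p = 0.751). Its neighbour Sprr1b read 5.11 and 5.01 against 13.27 and 13.52 (-8.34, SE 0.40, adjusted p = 6.24e-13). Cers3, a ceramide synthase, read 11.75 and 11.60 against 11.87 and 11.87, and Casp14, the caspase of cornification, was low in both organs, between 4.99 and 5.25. Lor, Sprr1a, Sprr1b and Ivl lie on chromosome 3 in the epidermal differentiation complex, where most envelope genes are clustered.

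The promoter windows of 4 of these neighbours are shown because their genes took different directions: Lor and Sprr1b were lower in bladder, Sprr1a was not called and Ivl was higher. Each window runs from 250 bases before the start of the gene to 50 after it, on the minus strand of chromosome 3, 5' to 3', from RefSeq on GRCm38.p6. Capitals mark matches to TGANTCA on either strand, the letters of the AP-1 element, which Fos and Jun proteins bind. The windows are chr3:92083093-92083392 for Lor, chr3:92438730-92439029 for Sprr1b, chr3:92485832-92486131 for Sprr1a and chr3:92573686-92573985 for Ivl.
Lor: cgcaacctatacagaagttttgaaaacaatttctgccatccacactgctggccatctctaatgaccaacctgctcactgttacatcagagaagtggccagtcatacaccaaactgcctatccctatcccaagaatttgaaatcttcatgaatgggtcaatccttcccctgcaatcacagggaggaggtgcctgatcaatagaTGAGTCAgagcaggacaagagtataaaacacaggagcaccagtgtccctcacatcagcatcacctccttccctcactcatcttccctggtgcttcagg
Sprr1b: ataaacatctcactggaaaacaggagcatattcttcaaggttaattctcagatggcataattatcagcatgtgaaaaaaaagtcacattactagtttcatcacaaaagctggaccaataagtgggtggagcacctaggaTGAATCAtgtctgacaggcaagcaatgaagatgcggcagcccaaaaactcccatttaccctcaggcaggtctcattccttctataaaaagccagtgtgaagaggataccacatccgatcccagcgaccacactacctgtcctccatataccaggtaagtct
Sprr1a: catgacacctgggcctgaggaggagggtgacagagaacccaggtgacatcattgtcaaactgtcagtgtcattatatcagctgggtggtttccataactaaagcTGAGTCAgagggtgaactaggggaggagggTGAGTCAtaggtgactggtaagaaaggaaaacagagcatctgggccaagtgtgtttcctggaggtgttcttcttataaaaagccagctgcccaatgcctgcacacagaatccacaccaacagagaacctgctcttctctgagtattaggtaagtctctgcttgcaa
Ivl: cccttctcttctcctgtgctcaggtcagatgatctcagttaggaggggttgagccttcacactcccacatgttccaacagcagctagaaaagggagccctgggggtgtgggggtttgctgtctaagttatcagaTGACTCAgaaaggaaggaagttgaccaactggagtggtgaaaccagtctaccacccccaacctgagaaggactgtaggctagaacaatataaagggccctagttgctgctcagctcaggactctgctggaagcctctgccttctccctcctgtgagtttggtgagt

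Lor, Sprr1b and Ivl held 1 match each and Sprr1a held 2, whatever the direction of the difference. Of 53 cornified envelope genes tested, 44 had a window, with 48 windows in all. TGANTCA was in 15 of the 48 (31.2%) and in 7.81% of all 32851 windows. TATAAA, the TATA box, was in 16 of the 48 (33.3%) and in 13.6% of all. Among 21 windows of smooth muscle genes TGANTCA was in 4 (19%), and among 19 windows of urothelial genes in 1 (5.26%). Windows of neighbouring copies share sequence, and a match is a description of letters, not a site. The other motifs were also searched on both strands, and the shares given are of the 48 windows and of all windows. AGATAA, the Gata letters, was in 10.4% and 11.2%. TTTATNG, for posterior Hox proteins, was in 12.5% and 10.9%. CCACCC, for Klf factors, was in 35.4% and 31.5%. AACCNGNTT, for Grhl factors, was in 6.25% and 2.31%. ACAATGG, for Sox factors, was in 2.08% and 3.66%. ACCGGAAGT, for Ets factors, was in 0% and 1.1%. The CArG box was in 2.08% and 1.63%, and the Pparg and Rxr repeat in 0% and 0.0396%. Overlaps between motifs were not removed.

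Protease inhibitors and mucosal defence followed the cornified side. Of 15 epithelial serpins, cystatins and S100 proteins, 10 were lower in bladder and 2 higher, with a median of -2.83. Serpinb3a read 3.69 and 3.66 against 12.43 and 12.56 (-8.82, SE 0.23), and Csta1, a cystatin of the envelope, differed by -7.69. The 2 higher in bladder were S100a6 (1.71) and S100a4 (1.39), calcium-binding proteins of growing and mesenchymal cells. Of 20 mucosal defence genes, 13 were lower and 3 higher, with a median of -3.41. The beta-defensin Defb4 read 4.60 and 3.98 against 12.77 and 12.78, and Slpi, the secreted leukocyte protease inhibitor, 7.79 and 7.37 against 14.79 and 14.80 (-7.22, SE 0.48, adjusted p = 1.4e-10). The epithelial interleukins Il1f6 (-7.59) and Il1f9 (-7.10) were lower too, while the cytokine Tslp was higher in bladder (1.58, SE 0.27, adjusted p = 6.3e-05). In the surface glycoprotein list of 14, 7 were lower in bladder and 4 higher, where 22.4% of all genes were lower and 24.3% higher. Among the lower were the Ly6-type proteins Slurp1 (-6.45), Lypd5 (-5.92), Lypd2 (-5.36) and Lypd3 (-4.13). Among the higher were Clca3a2 (5.70), Clca1 (4.03) and Clca3a1 (4.02).

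**Figure D2:**
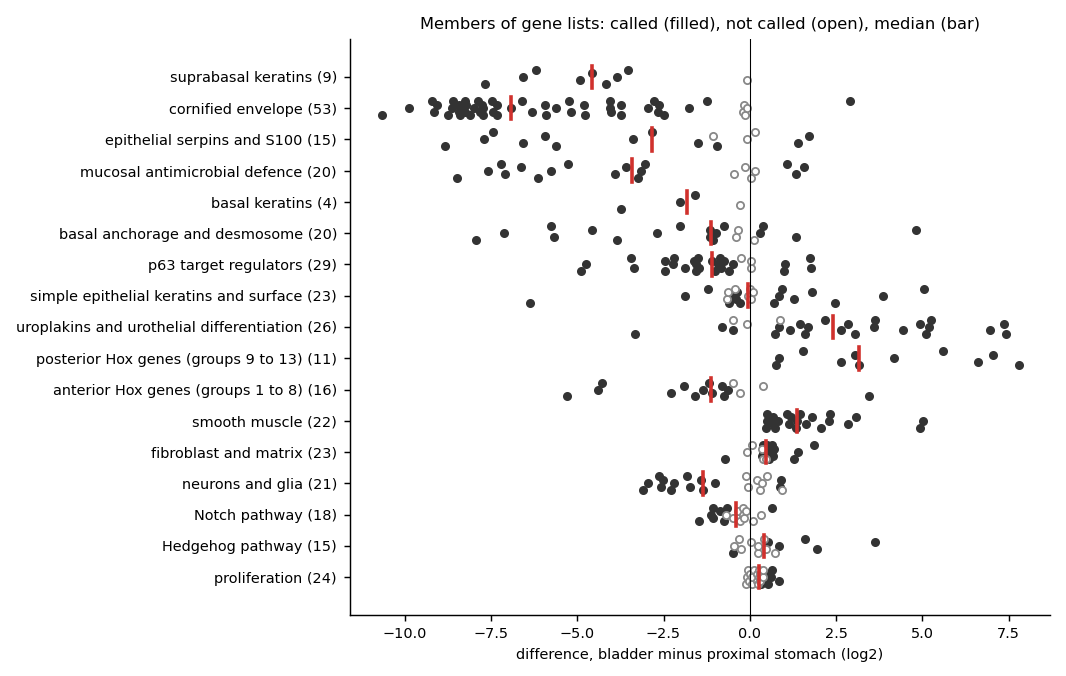
Difference in log2 level, wild-type bladder minus wild-type proximal stomach at E18, for each tested member of 17 gene lists (number tested in brackets). Filled points passed the test, open points did not, and the bar is the median. Cornified envelope, suprabasal keratins and antimicrobial defence extend far to the left, posterior Hox and urothelial genes to the right, and smooth muscle lies wholly right of 0.

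Genes of urothelial differentiation were mostly higher in bladder. Of 26 genes tested, 20 were higher in bladder and 3 lower, with a median of 2.40, and the list's median level was 12.15 and 12.30 in bladder and 9.20 and 9.32 in stomach. The uroplakins form the plaque in pairs, Upk1a with Upk2 and Upk1b with Upk3a. Upk1a had 12.90 ± 0.13 in bladder (SD, n = 2) against 5.82 and 5.28 in stomach (7.35, SE 0.25, adjusted p = 1.9e-15). Upk2 read 14.03 and 13.94 against 8.23 and 9.24 (5.24, SE 0.30, adjusted p = 1.08e-11).

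Upk3a read 14.02 and 13.87 against 6.95 and 7.01 (6.96, SE 0.19, adjusted p = 6.94e-17). Upk1b read 13.67 and 13.61 against 8.71 and 8.74 (4.91, SE 0.17, adjusted p = 2.34e-15). Upk3b, which mesothelium also expresses, differed less, 13.14 and 12.96 against 11.48 and 11.27 (1.68, SE 0.15). These 5 uroplakins were thus higher in bladder with no overlap, and their order of difference was Upk1a, Upk3a, Upk2, Upk1b and Upk3b. Snx31, a sorting nexin that binds uroplakins, differed by 7.41 and the umbrella cell keratin Krt20 by 5.19, with 11.33 and 10.43 against 5.63 and 5.75.

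The factors Pparg (2.17, SE 0.24) and Foxa1 (1.16, SE 0.14), which drive urothelial differentiation, were higher in bladder; these 2 were picked after their values were seen. Psca, a surface protein of both organs, read 13.97 and 13.81 against 11.11 and 13.79, so stomach replicate 2 stood beside the bladder arrays, and its call (1.45, adjusted p = 0.0179) ended without either bladder array, without stomach replicate 1 (0.11, adjusted p = 0.81) and with the actin covariate. The 3 lower in bladder were Vsig8 (-3.33), Vps33b (-0.80) and Rxra (-0.48), and the last was not called with the mean of its probe sets.

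Simple epithelial keratins split by partner. Krt18 read 14.71 and 14.59 in bladder against 10.56 and 11.04 in stomach (3.85, SE 0.10, adjusted p = 5.73e-17), while its partner Krt8 read 14.19 and 14.07 against 13.28 and 13.58 (0.70, SE 0.09, adjusted p = 1.35e-06). Krt19 was higher in bladder (1.80, SE 0.27), with stomach arrays at 11.88 and 13.52. Krt23 went the other way, 6.70 and 6.98 against 13.22 and 13.18 (-6.36, SE 0.32, adjusted p = 1.59e-12). Of the list's 23 genes, 8 were higher and 8 lower, with a median of -0.05, and 5 were lower with the actin covariate. Of all genes 24.3% were higher and 22.4% lower. Agr2, a disulfide isomerase of secretory cells, read 11.52 and 11.98 against 6.18 and 7.24 (5.04, SE 0.22).

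Single barrier and transport genes differed strongly, while the list as a whole was called no more often than other genes. The tight junction claudin Cldn8 read 12.16 and 12.19 in bladder against 6.75 and 7.42 (5.09, SE 0.25, adjusted p = 8.42e-13), Cldn1 was lower (-1.65, SE 0.33), and of the water channels Aqp1 was higher (2.97, SE 0.25) and Aqp5 lower (-3.06, SE 0.25). In all, 5 of 20 claudins and aquaporins were higher and 2 lower, against 46.6% of all genes called in either direction. In the retinoid list of 19, 5 were higher in bladder and 8 lower, where 24.3% of all genes were higher and 22.4% lower. The binding proteins Rbp2 (6.04 and 6.35 against 13.74 and 13.52, -7.44) and Crabp2 (-4.74) and the retinoic acid hydroxylases Cyp26b1 (-3.28) and Cyp26a1 (-3.06) were lower, and the retinol carrier Rbp4 (2.82) and the esterifying enzyme Lrat (2.73) were higher.

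Hox genes, which record position along the body axis, divided by paralog group. All 11 tested genes of groups 9 to 13, of 14 on the array, were higher in bladder (24.3% of all genes were), with a median of 3.16, and 12 of 16 tested genes of groups 1 to 8, of 19 on the array, were lower (22.4% of all genes were), with a median of -1.13. Without any 1 of the 4 arrays the 11 became 10. Hoxd13 read 11.35 and 11.57 in bladder against 4.16 and 4.66 (7.05, SE 0.35, adjusted p = 1.13e-12). Hoxd10 read 11.25 and 11.11 against 4.22 and 4.92, Hoxa11 9.98 and 9.95 against 4.61 and 4.17, and Hoxb13 9.19 and 9.09 against 6.43 and 6.54. Hoxa13 did not pass the filter on low values and was not tested; it read 7.38 and 7.40 against 4.60 and 4.76.

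The largest on the stomach side were Hoxc8 (7.30 and 6.69 against 12.37 and 12.24, -5.31), Hoxc5 (6.38 and 6.46 against 10.80 and 10.83, -4.40) and Hoxc4 (8.52 and 8.55 against 12.71 and 12.92, -4.28). Within the Hoxc cluster the sign changed between group 8 and groups 9 and 10, where Hoxc9 (0.77, SE 0.28) and Hoxc10 (1.53, SE 0.42) were higher in bladder. In the Hoxd cluster Hoxd8 was already higher in bladder (12.18 and 12.20 against 9.10 and 8.36, 3.46, SE 0.33, adjusted p = 2.7e-08). It was the single gene of groups 1 to 8 called so. Wild-type large intestine had means of 12.02 for Hoxa10, 11.15 for Hoxd13 and 11.46 for Hoxd10, while distal stomach and small intestine lay between 4.06 and 4.26 for these genes.

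**Figure D3:**
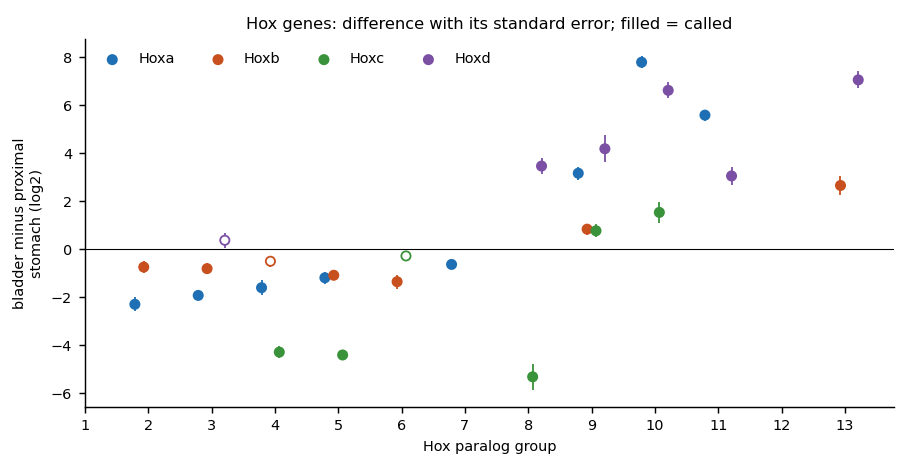
Difference in log2 level, wild-type bladder minus wild-type proximal stomach at E18, with its standard error, for each tested Hox gene by paralog group, coloured by cluster. Filled points passed the test. Every gene of groups 9 to 13 lies above 0, and Hoxc8 lies lowest at -5.31.

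Single factors of organ identity differed strongly, but the stomach and foregut list did not lean toward stomach. Of its 22 factors, 6 were lower in bladder and 8 higher (5 higher with the actin covariate), with a median of 0.17. Of all genes 22.4% were lower and 24.3% higher. Sox2, the foregut and squamous factor, read 7.18 and 7.67 in bladder against 11.96 and 12.31 in stomach (-4.71, SE 0.40, adjusted p = 5.27e-09). Sox21 read 5.12 and 5.12 against 10.64 and 11.21 (-5.81, SE 0.31), and the stomach mesenchyme factors Barx1 (-3.40) and Pitx1 (-2.72) were lower in bladder as well. Gata5 (10.01 and 9.97 against 6.16 and 6.27, 3.78), Gata6 (3.29) and Isl1 (2.91) were higher in bladder.

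Of 19 bladder and urogenital factors, 10 were higher and 4 lower, where 24.3% of all genes were higher and 22.4% lower. The T-box factors Tbx20 (11.06 and 10.71 against 6.12 and 6.83, 4.41) and Tbx4 (8.98 and 8.89 against 5.42 and 4.95, 3.75) were higher. The Iroquois factors Irx3 (6.09 and 6.12 against 10.71 and 10.38, -4.44) and Irx5 (-4.25) and the ligand Wnt4 (-2.37) were lower. Tbx4 had means between 4.63 and 4.92 in wild-type distal stomach, small intestine and large intestine, so unlike the posterior Hox genes it was low in large intestine.

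Among signals between epithelium and stroma, the Hedgehog ligand and some of its targets were higher in bladder. Shh, the Hedgehog ligand made by epithelium, read 11.91 and 12.41 in bladder against 7.66 and 9.40 in stomach (3.63, SE 0.46, adjusted p = 1.66e-06). Its stromal targets Hhip (10.52 and 10.46 against 8.70 and 8.37, 1.96, SE 0.17), Bmp4 (1.61, SE 0.23) and Ptch1 (0.84, SE 0.12) were higher too, and 5 of 15 Hedgehog genes were higher and 1, Disp1, lower (-0.47), a share below the 46.6% of all genes called. The Disp1 call ended without each bladder array and without stomach replicate 1. The target factor Gli1 read 9.11 and 8.69 against 8.08 and 8.29 and was not called (0.72, SE 0.29, adjusted p = 0.052). The stomach arrays differed from each other for Shh by more than for these targets.

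Of 25 Wnt ligands and inhibitors, 7 were higher in bladder and 8 lower, where 24.3% of all genes were higher and 22.4% lower. Wnt2, a stromal ligand, read 9.32 and 9.48 against 5.46 and 5.15 (4.09, SE 0.23, adjusted p = 6.72e-12), and the inhibitors Sostdc1 (2.35) and Frzb (1.74) were higher. Wnt4 (-2.37), Wnt7b (-2.29) and the amplifying ligand Rspo3 (-2.36) were lower. The 7 became 4 without bladder replicate 1. In the Notch pathway 7 of 18 genes were lower (22.4% of all genes were). Among them were the receptors Notch3 (-1.46, SE 0.18) and Notch1 (-1.06, SE 0.16), the ligand Jag1 (-1.08, SE 0.16) and the feedback target Nrarp (-1.12, SE 0.20). The 1 higher, Hey1 (0.64), was not called under 7 of the alternatives tried. Of 17 Bmp and Fgf genes 3 were higher and 3 lower, also a share below that of all genes, with Bmp5 at 1.93 and the activin antagonist Fst at -3.69.

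Smooth muscle was higher in bladder throughout. All 22 tested genes were higher, with a median of 1.36, and the count was 22 under each left-out array and with the actin covariate. The contractile genes near the top of the scale differed little, Acta2 by 0.49 (SE 0.08), Actg2 by 0.66 (SE 0.10) and Myh11 by 0.83 (SE 0.16). The intermediate filament gene Des differed by 2.07 (SE 0.28). The calcium store protein Casq2 read 12.77 and 12.23 in bladder against 7.99 and 6.96 (5.02, SE 0.40, adjusted p = 1.93e-09). P2rx1, the ATP receptor of the bladder detrusor, read 12.27 and 11.85 against 7.37 and 6.87 (4.94, SE 0.23, adjusted p = 4.64e-13).

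Genes named for striated muscle were also high in bladder. Acta1, skeletal alpha-actin, read 14.18 and 14.14 against 9.34 and 8.26 (5.36, SE 0.53, adjusted p = 4.94e-08 by limma). Tnnt3 (4.99), Tnnc2 (4.29) and Ckm (4.27) were higher too. Of 15 list members 8 were higher and 2 lower, where 24.3% of all genes were higher and 22.4% lower. The 2 lower were the myogenic factors Myog (4.93 and 4.81 against 9.07 and 7.88, -3.61) and Myod1 (6.60 and 6.65 against 8.72 and 8.64, -2.05). Of 6 cardiac genes, beside the same shares of all genes, 4 were higher, among them Myl4 (4.75), Actc1 (3.25) and Tnnt2 (3.04). Myl7 was lower (-2.37). In wild-type bladder the means of Acta1, Ckm and P2rx1 were 8.55, 6.15 and 7.02 at E15 and 14.59, 13.29 and 12.58 at E19. These 3 muscle genes thus read far lower in bladder at E15 than at E18, a difference that was not tested.

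Stroma and nerve genes were called in opposite directions. Of 23 fibroblast and matrix genes 17 were higher in bladder and 1 lower, with a median of 0.46 and Postn (periostin) the largest at 1.85 (SE 0.15). That count was 11 without bladder replicate 1, 10 without bladder replicate 2 and 6 without stomach replicate 2. Of 21 neuron and glia genes 12 were lower and 2 higher (1 higher without bladder replicate 2, without either stomach array or with the actin covariate), with a median of -1.36. Tubb3, neuronal tubulin, read 6.45 and 7.73 in bladder against 10.17 and 10.18 (-3.08, SE 0.54, adjusted p = 9.21e-05), Elavl4 differed by -2.57 (SE 0.36) and the glial factor Sox10 by -2.51 (SE 0.32). Bladder replicate 2 read above replicate 1 for these 3 genes.

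Markers of other cell types that a dissection could hold are given with the share of all genes called, 24.3% higher and 22.4% lower in bladder. Of 14 immune genes 6 were higher in bladder and 1 lower (1 higher without stomach replicate 2, 3 without bladder replicate 2 and 3 with the actin covariate), and of 17 endothelial genes 4 were higher and 3 lower (2 higher without bladder replicate 2 or without stomach replicate 1, and 1 lower without bladder replicate 1, without stomach replicate 1 or with the actin covariate). Ptprc, Csf1r, Pecam1 and Cdh5 were not called. Of 24 proliferation genes 7 were higher, with a median of 0.27, a share near that of all genes, and with the actin covariate 2 were. Of 10 mesothelial genes 4 were higher, namely Upk1b, Krt19, Upk3b and Krt8, which are also epithelial, and none was lower. The mesothelial markers Msln, Wt1 and Lrrn4 were not called (-0.29, 0.50 and 0.42). Of 19 gastric gland genes 1 was higher, the protease Ctse (10.15 and 10.65 against 4.84 and 6.52, 4.72), and 3 lower, and of 30 intestinal genes 4 were higher (2 with the actin covariate) and 5 lower. The intestinal transporters Slc15a1 (5.26 and 4.78 against 11.81 and 11.74, -6.75) and Slc5a1 (-4.60) were on the stomach side and lactase, Lct, on the bladder side (10.06 and 9.60 against 6.17 and 5.15, 4.17), while Cdx1, Cdx2 and Fabp2 read between 4.91 and 6.16 on all 4 arrays.

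Ttr and Scgb1a1 differed strongly. Ttr, the thyroid hormone carrier listed under liver, read 12.85 and 13.41 in bladder against 5.76 and 7.57 (6.47, SE 0.34, adjusted p = 2.78e-12), while Alb and Afp read between 5.58 and 7.91 and were not called. Of the 8 liver genes tested 1 was lower in bladder, the protease inhibitor Serpina1b (-4.89, adjusted p = 3.57e-10), and 6 were not called. Ttr had means of 13.94, 13.61 and 12.64 in wild-type distal stomach, small intestine and large intestine, so the proximal stomach was the low organ. Scgb1a1, the secretoglobin of airway club cells, read 4.50 and 4.29 in bladder against 11.06 and 10.61 in proximal stomach (-6.44, SE 0.25, adjusted p = 1.75e-14). Its means were 3.95, 3.86 and 3.97 in the other 3 gut organs. Whether tissue of a neighbouring organ entered a sample was not tested.

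The same organs were then compared in the p63 knockout, where 5655 genes were called (41.5%). The difference between organs itself differed between the genotypes for 3108 genes (22.8% of all tested), and for 2180 of the 6348 genes called in wild type (34.3%). Of the 3303 genes higher in wild-type bladder 1716 were also called higher in knockout bladder (52%), and of the 3045 lower 1452 (47.7%). With the actin covariate the difference between genotypes was called for 1860 genes.

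The share of such genes differed among lists. None of the 22 smooth muscle genes, the 11 posterior and 16 anterior Hox genes or the 24 proliferation genes was called for a different organ difference, nor were the 6 cardiac genes; a difference that was not called does not show equal values. Of the 53 cornified envelope genes 47 were, of 26 urothelial genes 17, of 23 simple epithelial genes 17, of 20 defence genes 12 and of 4 basal keratins 4. Hoxa10, for example, differed by 7.78 in wild type and 8.08 in the knockout, and P2rx1 by 4.94 and 5.14. Flg differed by -9.14 and -0.10, with knockout means of 3.95 in stomach and 3.85 in bladder.

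**Figure D4:**
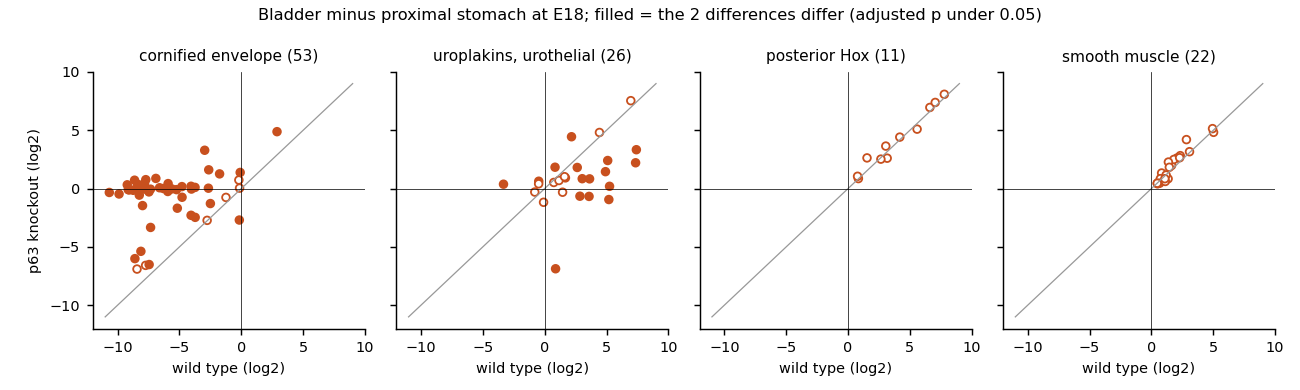
Difference in log2 level, bladder minus proximal stomach at E18, in wild type (horizontal) and in the p63 knockout (vertical) for the members of 4 lists (number in brackets). Filled points are genes whose difference was called different between the genotypes, and the line marks equal differences. Posterior Hox and smooth muscle genes lie along the line, and most cornified envelope genes lie near 0 on the vertical axis.

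Some squamous genes differed between the organs in the knockout too. Of the 48 cornified envelope genes lower in wild-type bladder, 13 were called lower in knockout bladder also, 4 were called higher and 31 were not called. Sprr3 was among the 13, with a knockout difference of -6.90 and a knockout stomach mean of 13.98. The suprabasal keratin Krt13 differed by -8.30 in the knockout against -7.67 in wild type, with the difference between them not called (0.63, adjusted p = 0.266). Fads2b, a fatty acid desaturase gene, differed by -8.08 beside -8.57 (difference -0.49, adjusted p = 0.414), and Lypd2 -5.71 beside -5.36. Krt1 differed by -0.58 in the knockout and -6.58 in wild type (difference -6.00).

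Uroplakins differed among themselves in the knockout stomach. Upk2 had a mean of 14.05 in knockout stomach, near that of knockout bladder (14.25), so its organ difference was 0.19 in the knockout and 5.24 in wild type (difference 5.05, adjusted p = 1.6e-08). Upk1a, Upk1b and Snx31 had knockout stomach means of 10.97, 12.45 and 9.80 and organ differences of 2.21, 1.45 and 3.33. Upk3a had a mean of 6.71 in knockout stomach and differed by 7.54, with no call between genotypes (-0.57, adjusted p = 0.13). Krt20 had a knockout stomach mean of 11.61 against 11.77 in wild-type distal stomach. Of the 5 uroplakins, Upk3a was thus the member low in knockout stomach.

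Basal keratins showed a different pattern for each gene. Krt15 had knockout means of 10.22 in bladder, where the arrays lay apart (11.74 and 8.70), and 15.10 in stomach. Its organ difference was -4.88 in the knockout and -0.29 in wild type (difference 4.59, adjusted p = 0.000146 by limma). Krt14 had knockout means of 8.35 in bladder and 6.96 in stomach, a difference of 1.40 where wild type had -2.02. Krt5 was low in both (difference between genotypes -0.96, adjusted p = 0.0128, not called without bladder replicate 2, stomach replicate 1 or knockout bladder replicate 2). Sox2 differed by -6.93 in the knockout and -4.71 in wild type (difference 2.22, adjusted p = 0.00659). Shh differed by 0.83 in the knockout and 3.63 in wild type (difference 2.80, adjusted p = 0.00327), with knockout means of 10.80 in bladder and 9.97 in stomach. With the actin covariate the differences between genotypes were -0.86 for Krt5 (adjusted p = 0.111 by limma), 2.08 for Sox2 (adjusted p = 0.0598) and 2.28 for Shh (adjusted p = 0.0664), none of them called. Without knockout bladder replicate 2 the Sox2 value was 1.38 (adjusted p = 0.0524).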

How the data were processed

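RNA from 28 mouse samples was measured on Affymetrix mouse genome arrays, and the authors deposited 1 table of log2 values with 45101 probe sets. The submitters' processing notes name Affymetrix Expression Console and Partek; the normalization method is not given in the sources used here. After removal of 64 control probe sets, 45037 were left, of which 34945 carry 1 gene symbol, 932 several and 9160 none in the platform annotation. Probe sets above the median of the array on at least 2 of 28 arrays were kept (28866), and each of 13613 genes was represented by its probe set with the highest mean.

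The deposited log2 values were fitted without further scaling with limma 3.58.1 in R 4.3.3 (14 groups, 14 residual degrees of freedom, variance trend), and the Benjamini-Hochberg adjustment ran over all genes. Trp63 was fitted by probe set. SE is limma's, and with 2 arrays a group their number limits the precision. The difference between genotypes is the wild-type organ difference minus the knockout one. Simulated data with the comparison's 13613 genes held 50 genes changed at each of several sizes. Of these, 24% were called at a change of 0.5 (log2), 64% at 1, 94% at 2 and 100% at 3. There were 14 calls among 13413 unchanged genes. In the data 46.6% of genes were called, far more than were changed in the simulation. The Benjamini-Hochberg adjustment depends on that share, so the simulated rates need not hold for the data.

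Named genes were the 15 largest called differences each way without overlap, up to 4 called members of a list each way, defining members of a group, the 5 largest differences between genotypes each way, and cell type markers. Rankings skipped sex-linked genes and placeholder symbols. Dsp, Jup, Sprr1b, Tgm1, Tgm3, Tchh, Casp14, Cers3, Pparg, Foxa1, Hoxc9, Hoxc10 and Gli1 were named after their values were seen. The members and the 40 lists were chosen with earlier results of these data known. Of 780 list symbols 702 were on the array. Same-numbered wild-type E18 arrays matched in sex-linked genes (replicate 1 high in Eif2s3y, replicate 2 in Xist), but nothing in the labels ties them to an animal, and the correlation of their deviations between bladder and proximal stomach was 0.14. Promoter windows came from RefSeq on GRCm38.p6.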

Additional observations from a re-analysis of the deposited data

Results flagged for a closer look

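Each of the following genes had an organ difference (bladder minus proximal stomach) that differed between wild type and p63 knockout by limma, an interaction over 2 arrays a group. The value is the wild-type difference minus the knockout difference on the log2 scale. On the positive side stood Alox15 (7.64), an arachidonate lipoxygenase, the retinol-oxidizing alcohol dehydrogenase Adh7 (6.72), the aldehyde oxidase Aox3 (6.18), the secreted inhibitor-like protein Wfdc2 (6.16) and the chloride channel protein Clic6 (6.15). Adh7 read 8.92 and 7.73 in wild-type bladder against 6.44 and 5.34 in wild-type stomach, and knockout stomach had a mean of 12.09. Wfdc2 had a knockout stomach mean of 14.01.

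On the negative side stood Nlrp10 (-13.79), a pattern receptor family member, the late envelope genes Lce3f (-10.33), Lce3a (-9.54) and Lce1a1 (-9.34), and Hrnr (-9.42). Nlrp10 turned over: it read 4.97 and 6.38 in wild-type bladder against 12.55 and 12.03 in wild-type stomach, and its knockout means were 11.39 in bladder and 4.22 in stomach.

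Among the defining genes the value was -0.96 for Krt5, -3.42 for Krt14, 4.59 for Krt15, 5.14 for Upk1a, 3.46 for Upk1b, 5.05 for Upk2, 2.22 for Sox2 and 2.80 for Shh. For Trp63 it was 1.58 on probe set 1418158_at (adjusted p = 0.0439 by limma, not called with no filter, with no variance trend or without any 1 of the 8 arrays), 1.34 on 1452027_a_at (adjusted p = 0.00129) and 2.18 on 1459581_at (adjusted p = 0.00117). Knockout stomach read above knockout bladder on all 3, by more than the wild-type stomach read above wild-type bladder.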

How the results depend on the processing

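With 2 arrays a group, no detection calls and no depth measure, signal near the bottom of the scale limits the differences of genes absent from 1 organ. The actin covariate moved the counts most: 4005 genes were called, 1761 of them lower in bladder, and the difference between genotypes was called for 1860, 1040 higher and 820 lower. Leaving out 1 array gave 4838 to 5500 calls between the organs and 2175 to 3238 between the genotypes, of which 915 to 1684 were lower; the 915 came without wild-type stomach replicate 1. The other alternatives gave 5060 (75th percentile filter) to 6645 (no filter) calls. The replicate number as a block gave 6375 calls, 6283 of them among the 6348, and 3132 between genotypes; the number goes with sex in the wild-type E18 arrays, and the labels do not say that it marks an animal.

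Trp63 probe set 1418158_at, at -0.82, was called where only the arrays compared (adjusted p = 0.00123 by limma) or only wild-type arrays (adjusted p = 0.00351) were fitted, and was -0.24 (adjusted p = 0.801) with the actin covariate. Its difference between genotypes, 1.58, was not called with no filter (adjusted p = 0.0584 by limma), with no variance trend (adjusted p = 0.0634) or without any 1 of the 8 arrays (1.46 to 1.71). Dst reversed to -0.56 with the mean of its probe sets. Of 3827 values of named genes under the alternatives, 3681 kept direction and side of the threshold, and 84 of 1280 list counts moved by over 1.5 times. The causes were not tested.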

Other observations

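Asz1, a gene known from germ cells, was among the largest bladder genes and its neighbours on the chromosome were looked up after its value was seen. Asz1 read 11.21 and 11.55 in bladder against 4.07 and 4.55 in proximal stomach (7.07, SE 0.25, adjusted p = 2.96e-15 by limma), with 10.52 in wild-type bladder at E15 and means of 4.62, 4.55 and 4.72 in distal stomach, small intestine and large intestine. In RefSeq order it lies between Wnt2 and Cftr. Wnt2 was higher in bladder as well (4.09), and its means in those 3 gut organs were 5.12, 5.03 and 5.15. Cftr was lower in bladder (-1.31), and the flanking genes St7 (0.94), Capza2 (0.59) and Lsm8 (0.43) were higher by less, with Cttnbp2 not called (0.34). In the knockout the organ differences of Asz1 and Wnt2 were 6.57 and 3.45.

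Rhox5, a homeobox gene of the X chromosome, read 11.07 and 10.77 in bladder against 5.32 and 5.78 (5.37). Proximal stomach replicate 2 read above replicate 1 for several genes of glandular or secretory epithelium: Ctse 6.52 against 4.84, Clic6 7.54 against 4.81, Tff1 8.70 against 6.77, Ceacam1 11.50 against 9.70 and Krt19 13.52 against 11.88. These 5 were picked after their values were seen, and whether the dissections differed was not tested.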
